A study of Mus musculus with 10 samples.

Results

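The genes of this account are 9 genes of heme synthesis, taken from the count table by symbol. Alas2, Alad, Uros, Urod, Cpox, Ppox and Fech encode enzymes of the pathway. Slc25a38 and Abcb10 encode mitochondrial membrane transporters that erythroid cells need to make heme. They were 9 of the 24421 genes with counts, and all 9 were among the 11846 genes that passed the filter on low counts. RNA was sequenced from CD71+Ter119+ (R2) erythroid precursors, a maturing stage of red cell formation, sorted from the bone marrow of transplanted mice. About 100000 R2 cells were used from each mouse.

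Donor marrow of 4 genotypes was compared. The Ddx41+/+ Trp53+/+ group had 3 mice (replicates 10, 11 and 12) and the Ddx41+/- Trp53+/+ group had 2 (32 and 34). The Ddx41+/+ Trp53+/- group had 3 mice (22, 23 and 24) and the Ddx41+/- Trp53+/- group had 2 (46 and 47). Ddx41 encodes a DEAD-box RNA helicase, and Trp53 encodes the p53 tumor suppressor. All donors, controls included, carried RosaCreERT2, a tamoxifen-activated Cre expressed in most cell types, and Ddx41+/- stands for a floxed allele recombined by it. Every recipient was a lethally irradiated BoyJ mouse given 1000000 donor marrow cells and tamoxifen at 1 mg a day for 5 days in each of 2 rounds. Marrow was taken 8 weeks after transplant. The ages of the mice are not given in the sources used here. R2 cells of the recipient that survived irradiation, or donor cells that kept the floxed allele, would be in the same libraries. Each library came from 1 mouse, so the spread between libraries is the spread between mice.

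Heme is made by a chain of enzymatic steps that begin in the mitochondrion, pass through the cytosol and end in the mitochondrion. In red cell precursors the pathway runs at a far higher rate than in other cells, because each hemoglobin chain binds a heme, and inherited loss of its enzymes causes porphyria or sideroblastic anemia. The first enzyme, Alas2, is the erythroid form of 5-aminolevulinate synthase. Its mRNA carries an iron-responsive element (IRE) near the 5′ end, through which iron-regulatory proteins block translation when iron is scarce. Counts of mRNA do not measure that step.

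The libraries held 7866648 to 20283930 counts. The 9 genes took 1.82% to 1.93% of the counts of a library, and a single member had between 3052 and 153256 counts, so counting error was small beside the spread between mice. Ddx41 was measured first as a check of the genotypes. It stood at 25.1, 21.9 and 22.6 CPM (counts scaled to a library of 1000000) in the Ddx41+/+ Trp53+/+ mice and at 26.6, 22.9 and 23.2 CPM in the Ddx41+/+ Trp53+/- mice. The Ddx41+/- mice had 13.8 and 16.5 CPM with Trp53+/+ and 12.5 and 15.6 CPM with Trp53+/-, all below the 6 Ddx41+/+ mice. Over both Trp53 genotypes the log2 fold change of Ddx41 was −0.70 ± 0.108 (SE, edgeR's quasi-likelihood test, adjusted p = 0.0173). Within a Trp53 genotype it was not called, at −0.63 with Trp53+/+ (edgeR, adjusted p = 0.0887) and −0.78 with Trp53+/- (edgeR, adjusted p = 0.177). Trp53 was lower in all 5 Trp53+/- mice than in all 5 Trp53+/+ mice (40.3 to 46.2 against 57.4 to 68.1 CPM), with a log2 fold change of −0.48 ± 0.069 over both Ddx41 genotypes (edgeR, adjusted p = 0.00355). The labels and these genes went the same way in every library.

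The R2 label was checked against erythroid markers. All 15 genes of an erythroid list were measured, and their summed level was 46250.3 to 53643 CPM, led by Slc4a1 (band 3 of the red cell membrane) with 25469 CPM or more in each library. Kit, a marker of earlier precursors, had 2.87 to 7.28 CPM. The adult globin genes were an exception. Hba-a1 reached at most 1.28 CPM, and all globin genes of the count table together took 0.0124% to 0.0135% of the counts. Of these Hbq1b, a theta globin, had most (106 to 126 CPM), so hemoglobin mRNA could not be set beside the heme genes here. Why the globin genes were near 0 was not tested. Other cell types left RNA in all libraries. Marker genes of neutrophils summed to 4944 to 8471 CPM, of macrophages to 279 to 647 CPM and of B cells to 206 to 488 CPM. In bulk RNA, fewer cells of a type and less RNA per cell cannot be told apart.

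The IRE of Alas2, the most abundant of these mRNAs, and a pair of promoters are shown as reference sequence. The IRE was found once in the reference transcript Alas2-201 (GENCODE annotation of GRCm38), from base 85, ahead of the start codon at base 127. It is printed 5′ to 3′ with the loop that iron-regulatory proteins bind in capitals.
Alas2 IRE: tggttcgtcctCAGTGCagggcaacagg

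Promoter windows of 250 bases before each RefSeq start (GRCm38.p6) were searched on both strands for words of GATA with an A or T before it and an A or G after it, which the erythroid factor GATA1 can bind, and for CCNCNCCC, which KLF1 can bind. Windows were found for 8 of the 9 members, 10 windows in all because Alad and Uros have a pair of starts each. A GATA word stood in 3 of the 10 windows, against 26.5% of the 32851 windows of all genes, and CCNCNCCC in 5 of 10, against 45.9%. Both kinds stood together in 1 of 10, that of Alas2, against 8.19%. Windows of 1 gene overlap or share a gene, and neighboring CCNCNCCC matches overlap each other. Such matches describe the sequence and are not shown to be bound here. The Alas2 window is shown up to the first base of the GENCODE gene model, 208 bases on the plus strand at chrX:150547167-150547374, with its GATA word in capitals. Its 4 CCNCNCCC words lay in the 42 bases that follow. The Cpox window, 250 bases on the plus strand at chr16:58669958-58670207, held a pair of GATA words that share a base, also in capitals.
Alas2 promoter: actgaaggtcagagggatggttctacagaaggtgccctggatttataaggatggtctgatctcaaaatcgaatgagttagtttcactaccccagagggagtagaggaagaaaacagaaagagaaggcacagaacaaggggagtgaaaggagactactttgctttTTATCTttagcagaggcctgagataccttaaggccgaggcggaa
Cpox promoter: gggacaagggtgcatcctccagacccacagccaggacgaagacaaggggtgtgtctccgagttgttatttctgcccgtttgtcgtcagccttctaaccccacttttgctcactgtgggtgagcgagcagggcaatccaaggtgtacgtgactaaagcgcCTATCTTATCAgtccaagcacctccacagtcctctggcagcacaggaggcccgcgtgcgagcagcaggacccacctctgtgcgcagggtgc

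The 9 genes stood at very different levels. Per kb of the longest principal transcript, Alas2 had 3888 ± 214 CPM (SD, n = 10 mice) and stood 4.47-fold above the next gene. Urod had 871 ± 38.2 and Alad 793 ± 28.9 CPM per kb. Cpox followed with 646 ± 36.3 CPM per kb and Fech with 529 ± 23.3. Ppox had 385 ± 33.4 and Abcb10 384 ± 14.8 CPM per kb. The lowest were Uros with 235 ± 13.6 and Slc25a38 with 212 ± 13.8 CPM per kb. The ranges of Urod and Alad overlapped over the mice, although Urod was higher within each of the 10 libraries. Ppox was above Abcb10 in 6 of 10 libraries, so these neighbors in the order could not be separated, and the ranges of Uros and Slc25a38 overlapped too. The other neighbors did not overlap. The place of Fech depended on its transcript: with the shortest basic coding transcript (1753 bases, not 6571) it had 1984 CPM per kb, second only to Alas2. Uros had 396 CPM per kb with its shortest transcript (1045 bases, not 1762), near Ppox and Abcb10. In CPM, without regard to length, Alas2 was the gene with rank 5 of all genes and Fech had rank 22.

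**Figure D1:**
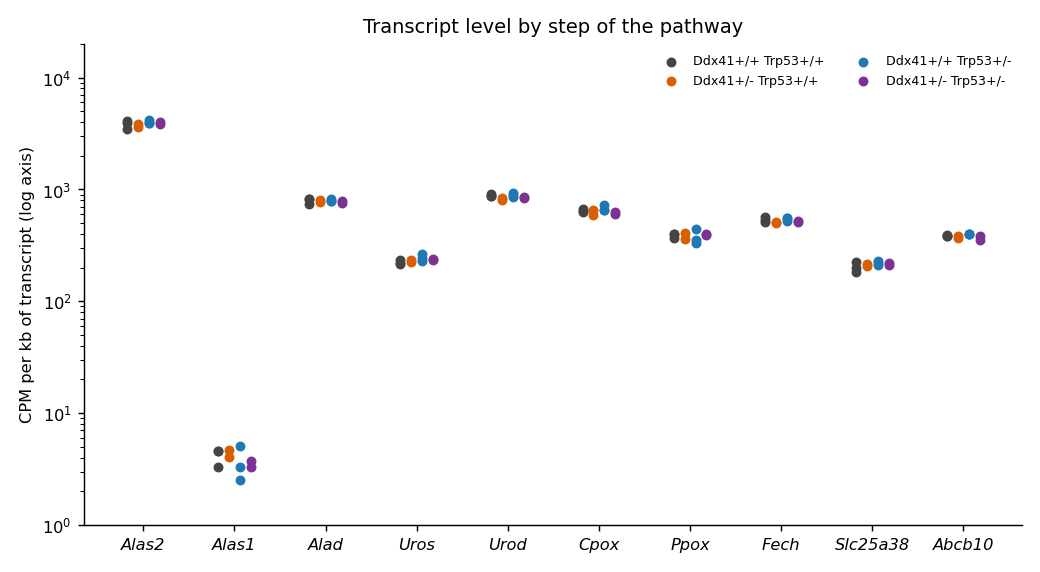
Level of each pathway gene in CPM per kb of its longest principal transcript (log axis), with 1 point per mouse colored by genotype, in the order of the steps and then the 2 transporters. Alas2 stood at 3440 to 4144 CPM per kb and Alas1, the housekeeping form of the same enzyme, at a mean of 3.91.

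Alas1, the form of 5-aminolevulinate synthase used outside the erythroid lineage, was low. It had 8.65 to 17.1 CPM, and per kb Alas2 exceeded it 770-fold to 1556-fold over the 10 mice (median 999-fold), with 3399 bases for Alas1. With the shortest basic coding transcript of Alas1 (2129 bases) its mean was 6.24 in place of 3.91 CPM per kb, so the ratio would be lower.

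The enzymes were then followed through the pathway in each mouse. Alas2, which joins glycine and succinyl-CoA in the mitochondrion, lies at chrX:150547375-150570638. It had 8082, 7007 and 8354 CPM in the Ddx41+/+ Trp53+/+ mice, 7409.5 and 7818 in the Ddx41+/- Trp53+/+ mice, 7986, 8069 and 8440.5 in the Ddx41+/+ Trp53+/- mice, and 8204 and 7827 in the Ddx41+/- Trp53+/- mice. The lowest value was in a Ddx41+/+ Trp53+/+ mouse, replicate 11, so the controls had the widest range and the Ddx41+/- mice with Trp53+/+ lay within it. The log2 fold change for Ddx41 was −0.04 ± 0.0728 with Trp53+/+ (SE, 95% interval −0.19 to 0.12, edgeR adjusted p = 0.923). With Trp53+/- it was −0.03 ± 0.0728. Exons of Alas2 share 15.5% of their bases with Apex2 and a miRNA gene on the opposite strand, and Apex2 had 11.1 to 20.6 CPM.

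Alad, on the minus strand at chr4:62509169-62519918, encodes the cytosolic dehydratase that forms porphobilinogen. Its values were 1019.9, 1031 and 928 CPM in the Ddx41+/+ Trp53+/+ mice, 963 and 1008 with Ddx41+/- Trp53+/+, 1029.7, 991 and 988 with Ddx41+/+ Trp53+/-, and 939 and 987 with Ddx41+/- Trp53+/-. The highest value was only 1.11-fold above the lowest. The log2 fold change for Ddx41 was −0.01 ± 0.0678 with Trp53+/+ and −0.06 ± 0.0677 with Trp53+/-.

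Uros closes the porphyrin ring in the cytosol and lies on the minus strand at chr7:133686243-133710072. The Ddx41+/+ Trp53+/+ mice had 389.8, 416 and 382 CPM, the Ddx41+/- Trp53+/+ mice 412 and 398, the Ddx41+/+ Trp53+/- mice 426, 469.6 and 407, and the Ddx41+/- Trp53+/- mice 418 and 416. Replicate 23 of the Ddx41+/+ Trp53+/- mice stood above all others. Uros had the lowest adjusted p of any member in any comparison, 0.51 for Trp53+/- against Trp53+/+ over both Ddx41 genotypes (edgeR, log2 fold change 0.10 ± 0.0506).

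Urod removes carboxyl groups from uroporphyrinogen and lies on the minus strand at chr4:116989965-116994413. It was the member whose Ddx41 groups separated most clearly. The Ddx41+/+ mice had 1367, 1307 and 1306 CPM with Trp53+/+ and 1397, 1288 and 1326 with Trp53+/-. The Ddx41+/- mice had 1211 and 1245 CPM with Trp53+/+ and 1253 and 1265 with Trp53+/-. All 4 Ddx41+/- mice were below all 6 Ddx41+/+ mice. The difference was small, a log2 fold change of −0.10 ± 0.0428 (95% interval −0.19 to −0.01) over both Trp53 genotypes. The unadjusted p was 0.0337 in edgeR's quasi-likelihood test and did not hold after adjustment (adjusted p = 0.527). It was the lowest unadjusted p among the 72 tests of members.

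Cpox acts between the mitochondrial membranes and lies on the plus strand at chr16:58670292-58717636. It had 1955, 2081 and 1975 CPM in the Ddx41+/+ Trp53+/+ mice, 1818 and 2024 with Ddx41+/- Trp53+/+, 2231, 2029.9 and 2041 with Ddx41+/+ Trp53+/-, and 1886 and 1952 with Ddx41+/- Trp53+/-. With Trp53+/- both Ddx41+/- mice were below the 3 Ddx41+/+ mice, and with Trp53+/+ the groups overlapped. Its log2 fold change with Trp53+/-, −0.13 ± 0.0696 (95% interval −0.28 to 0.02), was the lowest of any member (edgeR, adjusted p = 0.99968).

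Ppox, which oxidizes protoporphyrinogen to protoporphyrin on the inner mitochondrial membrane, lies on the minus strand at chr1:171275990-171281186. It varied most between mice of 1 genotype. Its values were 733, 732 and 666 CPM in the Ddx41+/+ Trp53+/+ mice, 739 and 651 with Ddx41+/- Trp53+/+, 639.9, 814 and 606 with Ddx41+/+ Trp53+/-, and 708 and 726 with Ddx41+/- Trp53+/-. The lowest and the highest mouse were both Ddx41+/+ Trp53+/- and differed 1.34-fold. Its log2 fold change for Ddx41 was −0.03 ± 0.103 with Trp53+/+ and 0.06 ± 0.103 with Trp53+/-, the widest errors of the 9 genes. Ppox shares 17.5% of its exon bases with B4galt3 on the opposite strand, which had 23.8 to 29.7 CPM.

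Fech inserts iron into protoporphyrin as the last step and lies on chromosome 18. It had 3492, 3372 and 3723 CPM in the Ddx41+/+ Trp53+/+ mice, 3275 and 3385 with Ddx41+/- Trp53+/+, 3663, 3432 and 3651 with Ddx41+/+ Trp53+/-, and 3328 and 3456 with Ddx41+/- Trp53+/-. The Ddx41+/- values lay at the lower end in both Trp53 genotypes and overlapped the Ddx41+/+ values. The log2 fold change over both was −0.08 ± 0.0437 (95% interval −0.17 to 0.01, edgeR adjusted p = 0.611).

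Both transporters were followed in the same way. Slc25a38, the carrier that brings glycine into the mitochondrion for Alas2, lies on the plus strand at chr9:120110374-120124504. It had 357, 399 and 325 CPM in the Ddx41+/+ Trp53+/+ mice, 371 and 388 with Ddx41+/- Trp53+/+, 378, 413 and 391 with Ddx41+/+ Trp53+/-, and 379 and 398 with Ddx41+/- Trp53+/-. As with Alas2, the control mice had the widest range and the other groups overlapped it. Abcb10, an inner membrane transporter that rises as red cells mature, lies on the minus strand at chr8:123952459-123983122. Its values were 1639.7, 1668 and 1692 CPM in the Ddx41+/+ Trp53+/+ mice, 1583 and 1641 with Ddx41+/- Trp53+/+, 1737, 1709 and 1713 with Ddx41+/+ Trp53+/-, and 1528 and 1641 with Ddx41+/- Trp53+/-. The 3 Ddx41+/+ Trp53+/- mice were the highest of all 10.

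**Figure D2:**
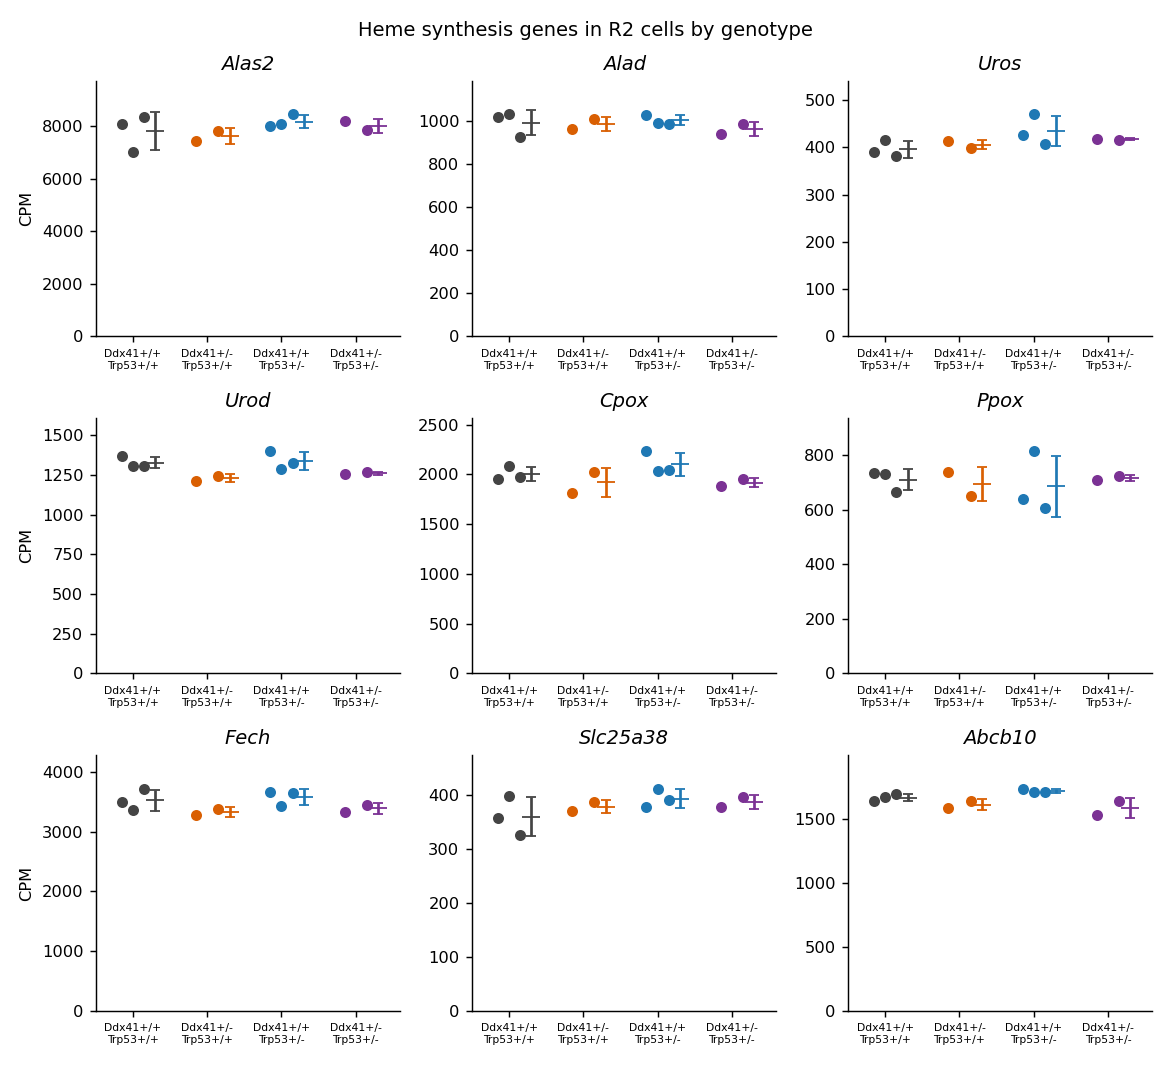
CPM of the 9 genes in each mouse by genotype, with the axis from 0, points for mice and the mean ± SD beside them (n = 3, 2, 3 and 2). Within each gene the highest mouse was 1.11-fold (Alad) to 1.34-fold (Ppox) above the lowest.

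The members differed in how tightly mice of 1 genotype held together. The SD of log2 CPM within genotypes was 0.036 for Abcb10 and 0.042 for Urod, and these ranked at percentiles 1.83 and 4.26 among the 493 genes nearest to each in level. That of Ppox was 0.149, at percentile 95.2 of 496 genes. Alas2 was in the middle (0.087, percentile 58.5 of 492). Slc25a38, at 0.096, was at percentile 69.7 of its 499 neighbors. The ranks describe these libraries and carry no test.

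**Figure D3:**
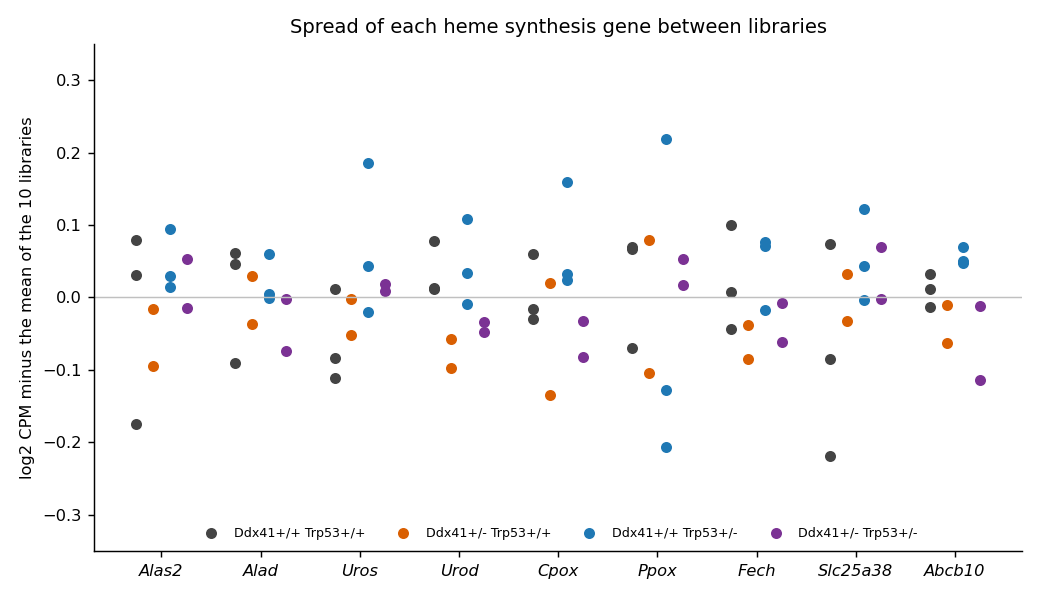
Log2 CPM of each gene minus its mean over the 10 mice, 1 point per mouse, colored by genotype. The 4 Ddx41+/- points of Urod lie below its 6 Ddx41+/+ points, while Ppox spreads widest, within the Ddx41+/+ Trp53+/- mice.

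Ddx41+/- was compared with Ddx41+/+ to ask what the loss of 1 allele did to these genes. No member passed the test. With Trp53+/+, 0 of 9 members were called (adjusted p under 0.05 and a fold change over 1.5 in edgeR), where 0.540% of all genes were called, and 0 of 9 had an unadjusted p under 0.05, where 9.64% of all genes did. Of the fold changes, 7 of 9 were below 0, with a median log2 fold change of −0.04, while the median of all tested genes was 0.0010. Values did not overlap between groups for Urod alone, which was lower (1 of 9, against 12.1% of all genes lower and 12.9% higher). With Trp53+/-, 0 of 9 members were called (0.0422% of all genes) and 0 of 9 had an unadjusted p under 0.05 (3.75%). There 8 of 9 members were below 0, with a median log2 fold change of −0.06 against −0.0050 for all genes. Alad, Urod, Cpox and Abcb10 were lower without overlap (4 of 9, against 10.8% of all genes lower and 9.23% higher).

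Over both Trp53 genotypes, with 4 mice against 6, Ddx41+/- gave 0 of 9 calls (0.11% of all genes) and 1 of 9, Urod, with an unadjusted p under 0.05 (8.98%). Values were lower without overlap for 1 of 9, Urod (0.777% of all genes lower, 0.794% higher). Here 7 of 9 members were below 0, and the median was −0.03. Whether the Ddx41 effect differed between the Trp53 genotypes was tested as an interaction. It was called for 0 of 9 members (0.0675% of all genes), and 0 of 9 had an unadjusted p under 0.05 (5.01%). The widest interval was that of Ppox, −0.21 to 0.40 on the log2 scale. Both comparisons within a Trp53 genotype had only 2 Ddx41+/- mice.

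**Figure D4:**
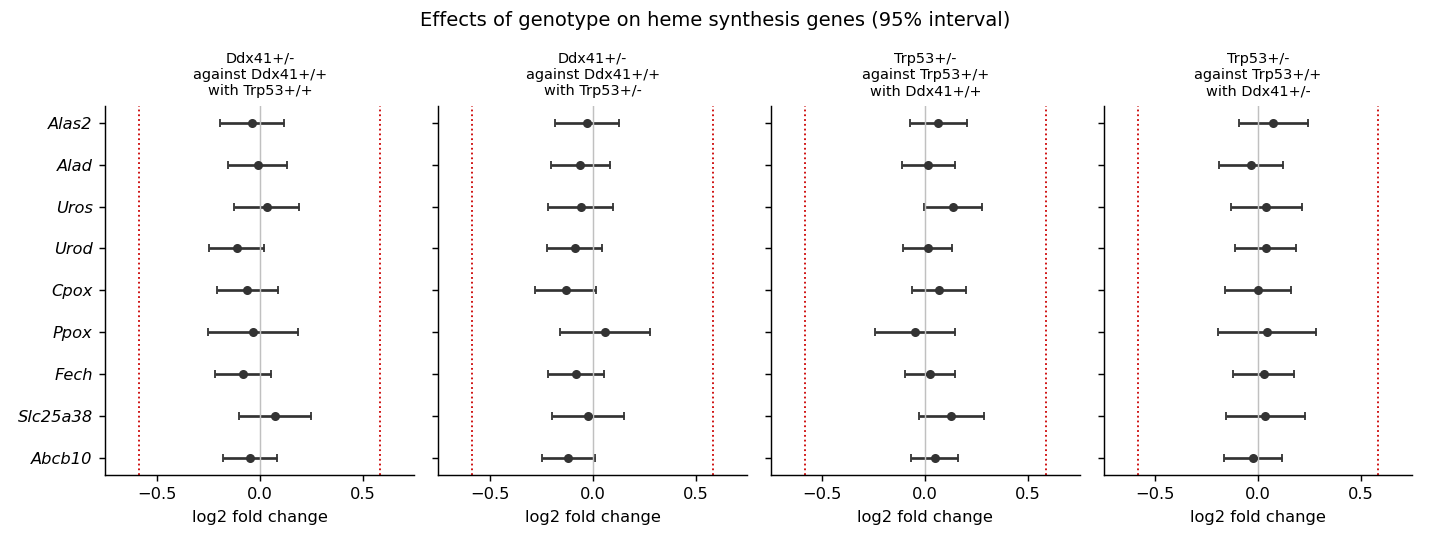
Log2 fold change of each gene (points) with its 95% interval (bars) in the 4 comparisons of 1 allele at a fixed genotype of the other gene, with dotted lines at a fold change of 1.5 in either direction. Every interval lies between the dotted lines, and none of the 36 was called.

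Trp53+/- was set against Trp53+/+ in the same way. In Ddx41+/+ mice 0 of 9 members were called (0.912% of all genes) and 0 of 9 had an unadjusted p under 0.05 (9.44%). Of the log2 fold changes, 8 of 9 were above 0, with a median of 0.05. Over all genes 49.9% were below 0 and the median was 0.00049. Abcb10 was higher without overlap (1 of 9, against 7.58% of all genes higher and 6.53% lower). In Ddx41+/- mice, where 2 mice were compared with 2, 0 of 9 were called (0.169%) and 0 of 9 had an unadjusted p under 0.05 (5.41%). Alas2, Uros and Urod were higher without overlap (3 of 9, against 18.8% of all genes higher and 18.5% lower). Over both Ddx41 genotypes 0 of 9 were called (0.287%), 0 of 9 had an unadjusted p under 0.05 (11.2%), and no member's values separated (1.08% of all genes higher and 0.929% lower). The highest log2 fold change was that of Uros, 0.13 ± 0.0664 in Ddx41+/+ mice (95% interval −0.01 to 0.27).

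The mice with a single allele of each gene were compared with the Ddx41+/+ Trp53+/+ mice, which also served as controls above. Of the 9 members 0 were called (1.11% of all genes) and 0 had an unadjusted p under 0.05 (11.6%). Urod and Cpox were lower without overlap (2 of 9, against 14.3% of all genes lower and 14.0% higher). The fold changes ran from −0.08 for Urod to 0.11 for Slc25a38 on the log2 scale.

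Over all 8 comparisons, 0 of 72 tests of members gave a call in edgeR and 0 in DESeq2, and 1 of 72 had an unadjusted p under 0.05 in edgeR. All 72 of the 95% intervals lay inside a fold change of 1.5 in either direction, and the extremes of the intervals were a fold change of 0.79 and 1.32. A missed threshold does not show that smaller differences are absent.

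The genes around the 9 were taken from 5 pathway lists and an erythroid list. None of their genes was called in any comparison in edgeR or in DESeq2. Of 14 genes of the remaining steps and cofactors, 0 were called in edgeR in 8 comparisons and 6 of 112 tests had an unadjusted p under 0.05. For 14 genes of mitochondrial iron and iron-sulphur clusters it was 12 of 112, for 12 of heme export, breakdown and sensing 7 of 96, for 9 of iron uptake 5 of 72, and for 3 tested globin genes 0 of 24. The 15 erythroid genes had 8 of 120. Over all genes the share with an unadjusted p under 0.05 was 3.75% to 11.6% by comparison. By these counts none of the lists is shown to stand apart. Direction was not tested. For Ddx41 over both Trp53 genotypes, 13 of 14 genes of the remaining steps were below 0, against 49.9% of all genes. For mitochondrial iron it was 9 of 14, for heme export 9 of 12, for iron uptake 7 of 9, for globins 2 of 3 and for erythroid genes 13 of 15. In the mice with a single allele of both genes, 5 of 9 members were below 0, against 50.6% of all genes. The remaining steps had 13 of 14, iron uptake 9 of 9, heme export 9 of 12 and mitochondrial iron 6 of 14. Erythroid genes had 10 of 15 and globins 2 of 3. For Trp53+/- in Ddx41+/+ mice, 13 of 15 erythroid genes and 11 of 14 of mitochondrial iron were above 0. There the remaining steps had 3 of 14 above 0, heme export 5 of 12, iron uptake 4 of 9 and globins 1 of 3.

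Tmem14c, a mitochondrial membrane protein of porphyrin transport, had 596 to 761 CPM, and Clpx, a chaperone that activates the first enzyme, 41.0 to 54.2 CPM. Their log2 fold changes over both Trp53 genotypes were −0.08 ± 0.0675 and −0.12 ± 0.0812. Slc25a37, the mitochondrial iron importer mitoferrin 1, was abundant at 5814 to 6688 CPM. Its 3 Ddx41+/+ Trp53+/- mice, at 6568, 6688 and 6644 CPM, were above the Ddx41+/+ Trp53+/+ mice, at 5822, 5889.6 and 6082, with a log2 fold change of 0.16 ± 0.0527 that missed the threshold (edgeR, adjusted p = 0.237). In Ddx41+/- mice the groups overlapped, with 5814 and 6202 CPM for Trp53+/- and 6385 and 6127 CPM for Trp53+/+ (log2 fold change −0.06 ± 0.0645). Its log2 fold change for Ddx41 was 0.08 ± 0.0588 with Trp53+/+ and −0.14 ± 0.0591 with Trp53+/-. The interaction was not called (edgeR, adjusted p = 0.83).

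Genes that export or sense heme were also measured. Abcg2, an exporter of porphyrins, had 515, 539 and 537 CPM in the Ddx41+/+ Trp53+/+ mice and 474 and 430.0 in the Ddx41+/- Trp53+/+ mice. The groups did not overlap, where 12.1% of all genes were lower without overlap (log2 fold change −0.23 ± 0.0757, edgeR adjusted p = 0.264). With Trp53+/- the Abcg2 values overlapped, at 522, 466 and 489 CPM for Ddx41+/+ and 439 and 485 for Ddx41+/- (log2 fold change −0.09 ± 0.0752). Flvcr1, a heme exporter listed under an older symbol, had 4.45 to 7.1 CPM, and its log2 fold change over both Trp53 genotypes was −0.08 ± 0.182. Hmox1, which breaks down heme, varied from 74.9 to 171 CPM and was not called, with −0.55 ± 0.201 for Trp53+/- in Ddx41+/+ mice (edgeR, adjusted p = 0.333) and 0.09 ± 0.246 in Ddx41+/- mice. For Ddx41 it was −0.19 ± 0.226 with Trp53+/+ and 0.45 ± 0.223 with Trp53+/-, without a call. Macrophages also express Hmox1, and their marker sum was 279 to 389 CPM in the Ddx41+/+ Trp53+/- mice against 338 to 647 in the Ddx41+/+ Trp53+/+ mice. All 10 macrophage markers had log2 fold changes below 0 there and none was called, and their part in the Hmox1 values was not tested. Bach1, a repressor that heme inactivates, had 57.2 to 73.4 CPM, and Eif2ak1, the kinase that slows globin translation when heme is short, had 1151 to 1381 CPM, with log2 fold changes for Ddx41 over both Trp53 genotypes of 0.00 ± 0.0745 and −0.11 ± 0.0483 and no call.

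Tfrc, the transferrin receptor by which red cell precursors take up iron, encodes CD71 and so was part of the sort. It had 2692 to 3458 CPM. Gata1 and Klf1, the transcription factors that drive erythroid genes, had 391 to 455 and 859 to 1023 CPM. For Gata1 the log2 fold change over both Trp53 genotypes was −0.09 ± 0.0509, and for Klf1 it was −0.04 ± 0.0509, with adjusted p of 0.64 and 0.859 in edgeR.

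A pair of neighbors came nearest to a call in the mice with a single allele of both genes, and they were chosen for mention after their values were seen. Hspa9, a mitochondrial chaperone of iron-sulphur cluster assembly, had 86.1, 93.1 and 89.2 CPM in the Ddx41+/+ Trp53+/+ mice and 64.9 and 66.3 CPM in the Ddx41+/- Trp53+/- mice. The groups did not overlap, where 14.3% of all genes were lower without overlap. The log2 fold change was −0.45 ± 0.105 with an adjusted p of 0.0494 in edgeR, under the threshold of p but not past a fold change of 1.5. Shmt2, which makes glycine from serine in the mitochondrion, had 106, 94.2 and 110.5 CPM in the first group and 81.6 and 73.5 CPM in the second (log2 fold change −0.42 ± 0.1, edgeR adjusted p = 0.0579).

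**Figure D5:**
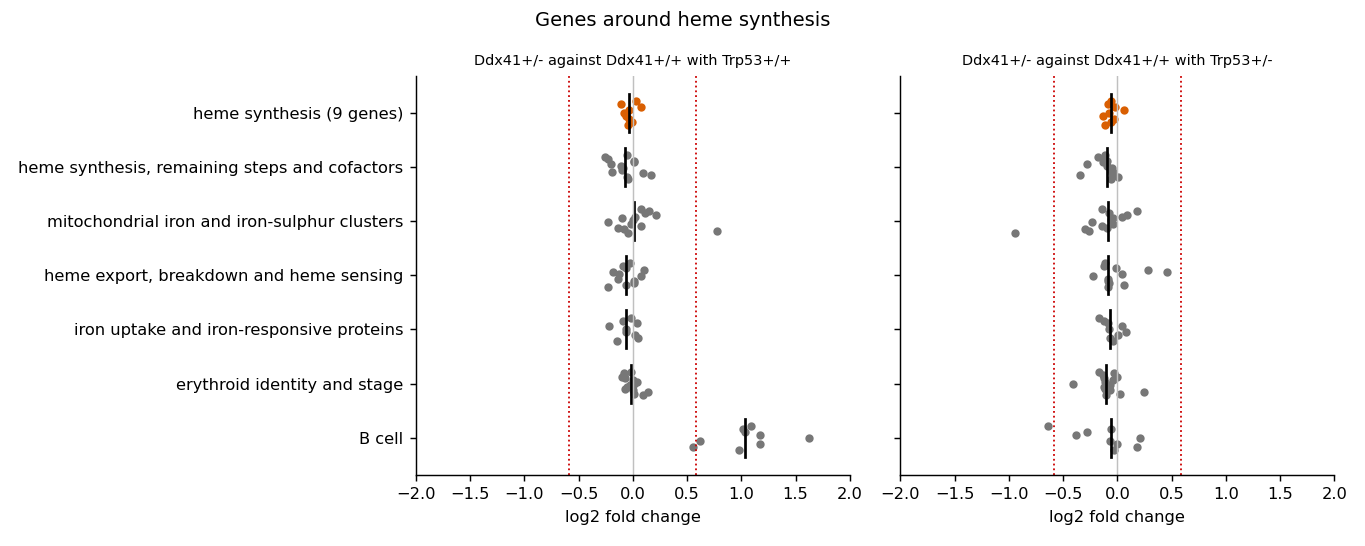
Log2 fold changes for Ddx41+/- against Ddx41+/+ within each Trp53 genotype, with 1 point per gene for the 9 genes of heme synthesis, the lists around them and B cell markers; black bars are medians and dotted lines mark a fold change of 1.5. The 9 genes lie between −0.13 and 0.07, while the B cell markers have a median of 1.04 with Trp53+/+ and −0.06 with Trp53+/-.

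Markers of another cell type did move with genotype. Of 9 B cell genes measured, Ebf1 (log2 fold change 1.62) and Cd79a (1.17) were called higher for Ddx41+/- with Trp53+/+. Vpreb3, Ebf1, Ms4a1 and Cd79a were among those called higher for Trp53+/- in Ddx41+/+ mice, and Ebf1 and Cd79a among those in the mice with a single allele of both. The sum of the list was 206 to 344 CPM in the Ddx41+/+ Trp53+/+ mice, 343 to 488 in the Ddx41+/- Trp53+/+ mice, 362 to 438 in the Ddx41+/+ Trp53+/- mice and 396 to 453 in the Ddx41+/- Trp53+/- mice, and none of the 9 genes was at 0 in all mice. The part of these cells in the members' values was not tested.

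Libraries, too, could be described by the members together, although as a set the members varied little in common. Over the 36 pairs of members, Pearson's r of log2 CPM across libraries had a median of 0.19. It ran from −0.59 for Ppox and Fech to 0.80 for Cpox and Abcb10. Some other pairs also varied together, such as Fech and Abcb10 (0.75), Urod and Cpox (0.74) and Uros and Slc25a38 (0.75). The values of such members are not separate observations. Within genotypes the median was 0.07 (−0.83 to 0.90), with 19 of 36 pairs above 0. Relative to its own mean over the 10 mice, 7 of 9 members were above in replicates 22 and 23 of the Ddx41+/+ Trp53+/- group and in replicate 11 of the Ddx41+/+ Trp53+/+ group, and 1 of 9 was above in replicate 32 of the Ddx41+/- Trp53+/+ group. Of the other libraries, replicate 12 of the Ddx41+/+ Trp53+/+ mice was lowest for 3 members and highest for 1. The members' mean log2 CPM in a library departed from its average by −0.05 to 0.07. Among 6825 genes at 10 CPM or more, those whose log2 CPM followed the members' mean z-score most closely over the 10 libraries were Cdc25b, a cell-cycle phosphatase (Pearson's r = 0.955), Ubqln2 (0.948), Dmtn, a red cell membrane skeleton protein (0.943), Agpat4 (0.94) and Man1a (0.899). These are the highest of 6825 values over libraries that differ in depth and in markers of other cells, and are given as a description.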

How the data were processed

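The deposited table held unnormalized counts of reads by gene symbol in 10 libraries of sorted R2 cells, 1 mouse each. The submitters' processing notes name FastQC 0.11.7, HISAT2 2.0.5, featureCounts 1.5.2 and mm10, with 75-base paired-end reads from a HiSeq2500. The gene annotation and the strand setting of the counting are not given in the sources used here, so reads of overlapping genes on opposite strands could not be told apart. Mice 35 and 45, which the deposited table is named as leaving out, were not analysed here. By number they lie beside the Ddx41+/- mice (32, 34, 46 and 47), whose groups had 2 mice each. The reason for leaving them out is not given in the sources used here, and its bearing on the comparisons was not tested. Counts were tested in R 4.3.3 with edgeR 4.0.16 (TMM scaling, its filter on low counts by genotype, quasi-likelihood F-test on all 10 libraries, 1 mean per genotype or an additive model), two-sided, with Benjamini-Hochberg adjustment over 11846 genes. A call was an adjusted p under 0.05 with a fold change over 1.5. Log2 CPM used a prior count of 2. Precision is set by 2 or 3 mice a genotype, and PCR reads without molecular identifiers are not independent molecules. Lengths and positions came from the GENCODE annotation of GRCm38. Of the 75-base stretches of the longest transcript, 1.60% for Fech and 2.05% for Urod also occurred in transcripts of other genes. Named were the members, Ddx41, Trp53, 13 fixed neighbors, any called gene of the lists and the 5 genes most alike. Of the genes this rule names, 2 are not reported here. Flvcr1 was matched by an older symbol. The members and lists were chosen with earlier results of these data known. The test was checked on simulated data in which 200 genes drawn at random from the tested genes were changed, and 11672 genes passed the filter. For Ddx41+/- with Trp53+/+, 71.9% of changes of 1 on the log2 scale reached an adjusted p under 0.05. So did 28.8% of those of 0.5 and 0% of those of 0.25. Of the genes past that threshold there, 12.2% had not been changed. These rates are over genes of all levels. The members had SE of 0.041 to 0.146 and were not simulated apart, so the rates do not give the chance of missing a change in a member. DESeq2 1.42.0, its size factors, no filter, no globin genes in the scaling, only the compared genotypes, no fold change limit and leaving out each mouse were tried.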

Additional observations from a re-analysis of the deposited data

Results flagged for a closer look

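Alas2 in replicate 11 of the Ddx41+/+ Trp53+/+ mice, at 7007 CPM, stood far from the other 5 Ddx41+/+ mice, at 7986 to 8440.5 CPM. Its gap to the nearest of them was 0.683 of the range of the 6 mice. Over 36 groups of member values looked at in this way, 1 such mouse was found, and chance alone gives about 1 in 20. The library had 20283930 counts, the most of the 10. In the same library 7 of 9 members were above their mean over the 10 mice.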

How the results depend on the processing

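No paired analysis was possible because the groups share no replicate numbers. No member was called under any of the 45 alternatives in settings or the 80 in which a mouse was left out, and their lowest adjusted p was 0.256, without Ddx41+/+ Trp53+/+ replicate 11 (edgeR). A genotype left with 1 mouse was assumed to vary like the others. The median log2 fold change of the members kept its size within the spread between mice under all settings of the model. With a mouse left out it ranged from −0.073 to −0.0038 for Ddx41 with Trp53+/+, from 0.0068 to 0.052 for Trp53 in Ddx41+/- mice, from −0.073 to −0.011 for both alleles together and from −0.072 to 0.011 for the interaction, the lowest or highest value each time without a Ddx41+/- mouse.

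Of the 72 log2 fold changes of single members, 28 changed sign when some mouse was left out. The largest of these was 0.0694 in size with all mice. Their ranges with a mouse left out follow. For Ddx41 with Trp53+/+ they were −0.11 to 0.013 for Alas2, −0.057 to 0.021 for Alad, −0.14 to 0.0092 for Cpox and −0.13 to 0.057 for Ppox. For Ddx41 with Trp53+/-, they were −0.058 to 0.019 for Alas2, −0.10 to 0.0012 for Uros, −0.021 to 0.20 for Ppox and −0.049 to 0.016 for Slc25a38. Trp53 in Ddx41+/+ mice gave −0.0093 to 0.11 for Alas2, −0.032 to 0.042 for Alad, −0.022 to 0.038 for Urod, −0.19 to 0.034 for Ppox and −0.0101 to 0.062 for Fech. Trp53 in Ddx41+/- mice gave −0.063 to 0.000599 for Alad, −0.068 to 0.079 for Cpox, −0.043 to 0.15 for Ppox and −0.069 to 0.023 for Abcb10. Both alleles together gave −0.026 to 0.087 for Alas2 and −0.032 to 0.044 for Ppox. The interaction gave −0.041 to 0.089 for Alas2, −0.0014 to 0.058 for Urod, −0.13 to 0.016 for Cpox and −0.036 to 0.042 for Fech. Ddx41 over both Trp53 genotypes gave −0.031 to 0.019 for Uros, −0.027 to 0.075 for Ppox and −0.0102 to 0.064 for Slc25a38. Trp53 over both Ddx41 genotypes gave −0.033 to 0.0098 for Alad and −0.083 to 0.039 for Ppox. For Cpox and Trp53 in Ddx41+/- mice, −0.0016 also turned to 0.0022 with DESeq2, 0.00203 with DESeq2 size factors and 0.00093 without the filter.

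Counts over all genes moved more. With DESeq2, 131 genes were called in place of 64 for Ddx41 with Trp53+/+, 36 in place of 20 for Trp53 in Ddx41+/- mice, 29 in place of 8 for the interaction, 37 in place of 13 for Ddx41 over both Trp53 genotypes and 90 in place of 34 for Trp53 over both Ddx41 genotypes. Without the filter the 8 counts became 243, 39, 250, 67, 284, 100, 94 and 181, in the order of Ddx41 with Trp53+/+ and +/-, Trp53 with Ddx41+/+ and +/-, both alleles, interaction, Ddx41 and Trp53 over both genotypes of the other gene, from 64, 5, 108, 20, 131, 8, 13 and 34. With only the genotypes compared, 66, 37 and 77 were called for Trp53 in Ddx41+/+ mice, Trp53 in Ddx41+/- mice and both alleles. Without the fold change limit, 52 were called for Trp53 over both Ddx41 genotypes. Leaving out a mouse gave 13 to 103, 1 to 10, 35 to 115, 13 to 24, 31 to 159, 8 to 12, 2 to 42 and 20 to 79 in the same order. The cause was not tested. Each member had at least 3052 counts in a library.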
